A study of Mus musculus with 10 samples.

Results

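Complement is a set of plasma and membrane proteins that tag and lyse targets in a cascade of proteases. In the classical pathway C1q recognizes bound antibody or altered surfaces, and the proteases C1r and C1s ride on it. C1r activates C1s, C1s cleaves C4 and C2, and the product cleaves C3, the component on which all routes meet. Factor B drives the alternative loop that amplifies C3 cleavage, and C1 inhibitor shuts C1r and C1s off. The liver makes most circulating complement, whereas C1q is made mainly by macrophages and related myeloid cells, and fibroblasts, tumor cells and myeloid cells can make C1r, C1s, C3, C4 and factor B locally, often after interferon or inflammatory cytokines.

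Transcripts of 9 complement genes were followed here, chosen by name from the table of estimated counts, and all 9 were found among its 35958 features and passed the filter on low values. These are the C1q chains C1qa, C1qb and C1qc, the C1 proteases C1ra and C1s1, the C4 gene C4b, C3, the factor B gene Cfb and the C1 inhibitor gene Serping1. The RNA came from tumors of the mouse fibrosarcoma line WEHI-164, implanted under the skin of female BALB/c mice of wild-type genotype. Each of the 10 libraries is polyA RNA from 1 untreated tumor piece, taken at surgery before a hydrogel loaded with poly(I:C), a double-stranded RNA mimic, was laid on the tumor left behind. The groups were named from what followed: 5 responders, whose tumors regressed completely, and 5 non-responders, whose tumors grew without delay. The tumor numbers used below (1, 2, 3, 6 and 7 for non-responders, 5, 9, 10, 11 and 12 for responders) are the submitters' own. Responder libraries held 16002778 to 31160578 estimated counts and non-responder libraries 19863697 to 28275958, and the 9 genes held between 581 and 13511 counts in any tumor. The tissue is bulk tumor from a single cell line, in which fewer cells of a type and less RNA per cell cannot be told apart.

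Defining markers of the labeled tissue were abundant. The summed level of 12 fibroblast and fibrosarcoma markers was 10171 ± 424 counts scaled to a common library total (CPM) among responders and 10648 ± 748 CPM among non-responders (SD, n = 5 per group), led by the intermediate filament gene Vim. The 12 macrophage markers summed to 2144 ± 242 and 1958 ± 242 CPM, led by the lysozyme gene Lyz2. Hepatocyte markers were near 0. Alb, the albumin gene, had 1 to 7 counts per tumor, Ttr had 0 in every tumor, and Apoa1, Fgb and Ahsg had at most 3.

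The member genes lie in clusters of the mouse genome (GRCm38, GENCODE vM21 annotation). C1qb, C1qc and C1qa follow each other on the minus strand of chromosome 4, at chr4:136880129-136886187, chr4:136889804-136893065 and chr4:136895917-136898803, with 3616 and 2851 bases between them. C1ra (chr6:124512405-124523443, plus strand) and C1s1 (chr6:124530345-124542359, minus strand) end 6901 bases apart, tail to tail. C4b (chr17:34728380-34743882) and Cfb (chr17:34856374-34862518) share the major histocompatibility region of chromosome 17, 112491 bases apart, and C3 (chr17:57203970-57228136) lies far beyond them on the same chromosome. Serping1 is at chr2:84765387-84775444. The last 4 genes are on the minus strand.

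Some members share sequence with neighbors, which bears on how reads are assigned. None of the 31-base words of C1qa, C1qb, C1qc, C3 and Serping1 transcripts occurs in a transcript of another gene. For C1ra 59.6% of its words are shared, nearly all of them with its paralog C1rb, and for C1s1 47.6%, of which C1s2 holds 33.5% and the antisense gene Gm16567 15.5%. C4b shares 48.3% with its copy C4a, and Cfb 75.5% with the overlapping gene model Gm20547 on the same strand. Whether the counting used strand is not given in the sources used here, and without it reads of C1s1 and Gm16567 cannot be told apart. C4a, Gm20547 and Gm16567 were not found by name among the counted features. The values of C4b, Cfb and C1s1 may therefore include reads of these genes, to an extent that could not be measured. As assigned by the authors' counting, C1s2 had 0.0734 ± 0.0065 of the CPM of C1s1 and C1rb 0.0483 ± 0.0117 of that of C1ra (SD, n = 10).

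Promoter windows, from 250 bases before to 50 after the RefSeq start, were found for C1qb, C1qc, C1ra, C1s1 (which has a pair of overlapping windows) and C3, and not for C1qa, C4b, Cfb and Serping1. The 3 shown, from RefSeq on GRCm38.p6 and all on the minus strand, set neighboring C1q genes beside C1s1, the member whose group difference was the largest. Capitals mark the match to the core of a PU.1 site, the motif of a transcription factor of macrophages.
C1qb, chr4:136886151-136886450: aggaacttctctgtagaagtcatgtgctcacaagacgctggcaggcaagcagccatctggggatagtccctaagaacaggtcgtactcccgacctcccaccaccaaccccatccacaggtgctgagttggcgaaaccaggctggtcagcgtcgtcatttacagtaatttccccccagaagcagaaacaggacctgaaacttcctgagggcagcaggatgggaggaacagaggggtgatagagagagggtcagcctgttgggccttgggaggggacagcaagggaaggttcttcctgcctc
C1qc, chr4:136892865-136893164: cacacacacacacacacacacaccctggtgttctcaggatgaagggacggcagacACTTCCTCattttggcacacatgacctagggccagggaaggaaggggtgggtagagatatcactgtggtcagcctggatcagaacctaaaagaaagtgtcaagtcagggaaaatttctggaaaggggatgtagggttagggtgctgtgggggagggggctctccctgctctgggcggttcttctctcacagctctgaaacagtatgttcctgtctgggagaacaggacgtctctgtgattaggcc
C1s1, chr6:124542310-124542609: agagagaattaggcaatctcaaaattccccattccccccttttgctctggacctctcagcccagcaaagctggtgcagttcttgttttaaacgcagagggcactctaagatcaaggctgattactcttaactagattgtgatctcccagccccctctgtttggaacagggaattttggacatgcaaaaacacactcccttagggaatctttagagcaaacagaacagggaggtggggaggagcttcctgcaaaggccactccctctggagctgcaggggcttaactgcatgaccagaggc

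Letters of 4 motifs were searched on both strands of the 6 windows. The letters GAGGAAGT (PU.1) matched once, as ACTTCCTC on the reverse strand 195 bases before the RefSeq start of C1qc. Of all 32851 promoter windows of the same length 3.20% hold these letters. The letters TTCNNNGAA (gamma-activated site) matched once, as TTCCCTGAA at base 33 counted from the RefSeq start of C1ra, and 8.30% of windows hold them. The letters GAAANNGAA (core of the interferon-stimulated response element), held by 8.56% of windows, and GGGANNTTC (one side of a kappaB site), held by 3.94%, had no match. For C1qc and C1ra the RefSeq start lies downstream of the GENCODE start given above. The GENCODE start of C1qc, 136893065, is inside its window (136892865-136893164), and the match lies upstream of both starts. The GENCODE start of C1ra, 124512405, is near the upstream end of its window (124512371-124512670), so most of that window and its match lie within the GENCODE gene. A match is a description of letters, and no binding was measured.

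The C1q genes stood far above the other members per unit of length. Dividing CPM by the kilobases of merged exons, C1qa averaged 336 ± 42.1, C1qb 209 ± 26.6 and C1qc 140 ± 18.7 CPM per kb over the 10 tumors (SD). C1s1 followed at 42.7 ± 14.1 and C3 at 39.0 ± 16.9 CPM per kb. Below these came Cfb at 32.3 ± 5.76, C1ra at 25.8 ± 5.59, Serping1 at 21.9 ± 8.05 and C4b at 10.4 ± 2.25 CPM per kb. From C1s1 down to Serping1 no neighbors in this order differed by more than the sum of their SDs. The order of C1qb and C1qc rests on the length used: the merged exons of the 2 C1qc transcripts are longer than either transcript, and with the length of the longest transcript alone it averaged 225 CPM per kb, above C1qb. These levels per length are drawn by group in the bar plot.

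**Figure D1:**
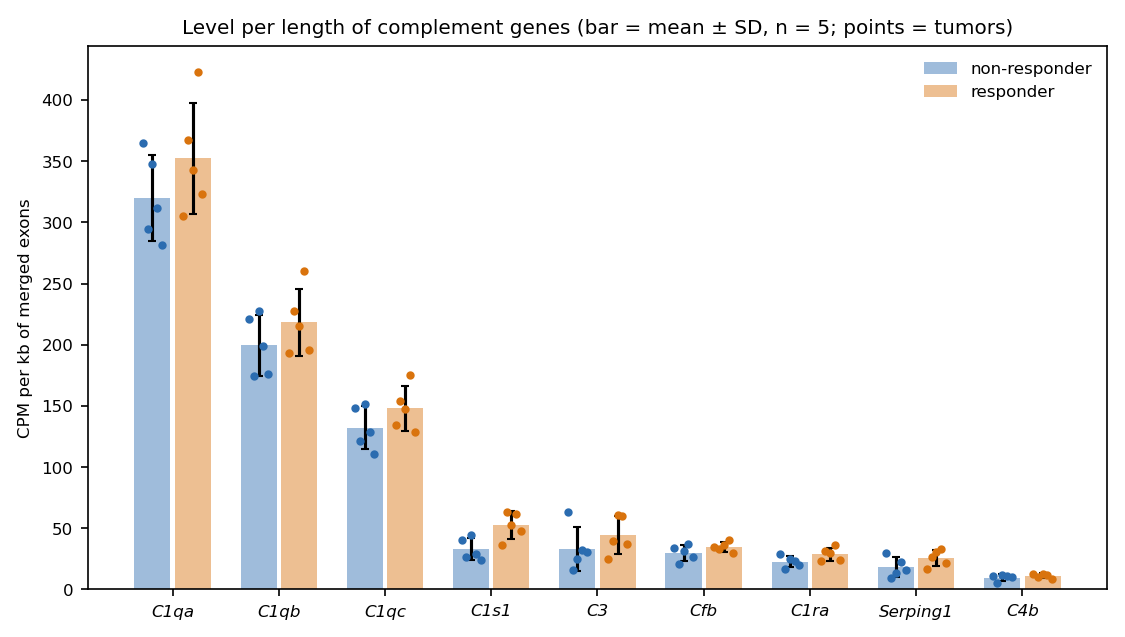
Level of each complement gene in CPM per kb of merged exons. Bars are group means, error bars SD (n = 5), points are tumors. The 3 C1q genes stand at 140 to 336 CPM per kb on average and the other 6 at 10.4 to 42.7.

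Tumors differed from each other most in C3 and least in the C1q genes. The highest tumor exceeded the lowest 3.94-fold for C3, 3.74-fold for Serping1, 2.62-fold for C1s1, 2.49-fold for C4b, 2.11-fold for C1ra and 1.99-fold for Cfb, against 1.49-fold to 1.58-fold for the C1q genes. Among 9987 features with a mean of at least 10 CPM, between 87.6% (C1qa) and 99.5% (C3) had a smaller SD on the log2 scale than the member. Responder 11 was the highest tumor for 6 of the 9 genes and non-responder 2 the lowest for 6. Non-responder 7 was the lowest for the remaining 3, namely C1qa, C1qc and C1s1.

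The C1q chains assemble into one protein, and their transcripts stood in a nearly constant proportion. Per length, C1qa stood at 1.61 ± 0.05 times C1qb and C1qc at 0.67 ± 0.02 times C1qb over the 10 tumors (SD), with a coefficient of variation of 2.86% and 3.06%. The C1qa to C1qb ratio was 1.61 ± 0.03 among responders and 1.61 ± 0.06 among non-responders (SD, n = 5 per group). The ratio thus differed between the groups by less than the spread between tumors.

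The comparison of responders with non-responders asks which transcripts differed in the resected piece, before poly(I:C). Of 15767 features tested, 0 passed an adjusted p of 0.05 with edgeR's quasi-likelihood test, that is 0.00%, and the smallest adjusted p was 0.580. None of the 9 members therefore passed. All 9 had a log2 fold change above 0 (responder over non-responder), as did 48.6% of all features, with a median of 0.21 against -0.0036 for all features. At an unadjusted p under 0.05, 2 of the 9 were higher in responders, C1s1 and C1ra, where 4.20% of all features were, and 0 were lower. In either direction 8.21% of features had such a p. For 0 of the 9 did every responder exceed every non-responder, a separation that 0.336% of features showed. The 9 genes vary together across tumors, so the 9 directions are not 9 separate observations.

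C1s1, the protease that cleaves C4 and C2, had the largest difference. It stood at 126, 82.8, 140.0, 90.9 and 76.0 CPM in non-responders 1, 2, 3, 6 and 7, and at 114, 199, 165, 194 and 150.0 CPM in responders 5, 9, 10, 11 and 12. Responders 9, 10, 11 and 12 exceeded every non-responder, while responder 5 lay below non-responders 1 and 3. The mean was 164 ± 34.9 CPM among responders and 103 ± 28.1 CPM among non-responders (SD, n = 5 per group). The log2 fold change was 0.68 (SE 0.18), a 1.60-fold difference with a 95% confidence interval from 1.22 to 2.10, and its unadjusted p of 0.00261 ranked 45 of all features, with an adjusted p of 0.580 by edgeR. In the 10 fits that drop 1 tumor the log2 fold change lay between 0.59 and 0.81, with an unadjusted p under 0.05 in all 10. Its paralog C1s2 had a log2 fold change of 0.71 (SE 0.19, edgeR unadjusted p 0.00273), and with the counts of both genes summed the value was 0.68.

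C1ra, which encodes the protease that activates C1s, had the second smallest unadjusted p of the members. It was at 85.5, 51.0, 73.5, 68.5 and 60.7 CPM in non-responders 1, 2, 3, 6 and 7, and at 70.2, 93.2, 87.9, 107.5 and 70.6 CPM in responders 5, 9, 10, 11 and 12. Only responders 9, 10 and 11 exceeded every non-responder, and responders 5 and 12 lay among the non-responders. The log2 fold change was 0.34 (SE 0.14, edgeR unadjusted p 0.0309, adjusted p 0.591). It ran from 0.25 to 0.44 with single tumors left out, and the unadjusted p was under 0.05 in 5 of these 10 fits. Per length C1s1 stood at 1.82 ± 0.21 times C1ra in responders and 1.44 ± 0.25 times in non-responders (SD, n = 5 per group), with ranges of 1.54 to 2.04 and 1.19 to 1.81 that overlap, and this difference was not tested.

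The 3 C1q genes had log2 fold changes close to each other. C1qa was at 379, 306, 361, 324 and 292 CPM in non-responders 1, 2, 3, 6 and 7, and at 317, 382, 357, 439 and 336 CPM in responders 5, 9, 10, 11 and 12. C1qb was at 241, 189.7, 247, 216 and 191 CPM in the same non-responders and at 210.3, 248, 234, 283 and 213 CPM in the same responders. C1qc was at 286, 234, 293, 249 and 214 CPM in non-responders and at 259.8, 298, 285, 338 and 248 CPM in responders. The groups overlapped for all 3, with non-responders 1 and 3 among the upper tumors and responders 5 and 12 among the lower. The log2 fold changes were 0.14 (SE 0.09) for C1qa, 0.13 (SE 0.10) for C1qb and 0.16 (SE 0.10) for C1qc, with edgeR adjusted p-values of 0.712, 0.735 and 0.685. Without responder 11 they were 0.07, 0.06 and 0.10. The 95% intervals of the fold reached up to 1.26 for C1qa and C1qb and 1.30 for C1qc. Whether C1s1 differed more than C1q was not tested.

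C3, the central component, varied widely within both groups. It was at 327, 82.8, 129.6, 164 and 156 CPM in non-responders 1, 2, 3, 6 and 7, and at 129, 205, 315, 307 and 192 CPM in responders 5, 9, 10, 11 and 12. The highest tumor was non-responder 1, and responder 5 was second from the bottom. The log2 fold change was 0.42 (SE 0.32, edgeR adjusted p 0.749). It was 0.79 without non-responder 1 and 0.24 without non-responder 2, so either tumor moved it by more than 1.5 times.

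Serping1, which encodes the inhibitor of C1r and C1s, resembled C3 in its order of tumors. It was at 68.8, 20.8, 30.75, 52.9 and 37.3 CPM in non-responders 1, 2, 3, 6 and 7, and at 39.5, 60.7, 70.8, 77.5 and 49.2 CPM in responders 5, 9, 10, 11 and 12. Responders 10 and 11 exceeded every non-responder, and non-responder 1 came next. The log2 fold change was 0.50 (SE 0.27, edgeR unadjusted p 0.0892, adjusted p 0.657). It was 0.75 without non-responder 1 and 0.33 without non-responder 2.

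C4b and Cfb, the neighbors in the histocompatibility region, overlapped between groups. C4b, whose product C1s cleaves, was at 60.7, 29.4, 65.3, 61.6 and 58.9 CPM in non-responders 1, 2, 3, 6 and 7, and at 72.1, 59.8, 73.2, 66.1 and 47.6 CPM in responders 5, 9, 10, 11 and 12. Non-responder 2 stood alone below all others. The C4b log2 fold change of 0.21 (SE 0.18, edgeR adjusted p 0.783) was 0.05 without non-responder 2. Cfb, the protease of the alternative loop, was at 96.3, 57.6, 88.6, 105 and 75.8 CPM in non-responders and at 96.8, 92.7, 103, 114 and 83.0 CPM in responders. Its log2 fold change was 0.21 (SE 0.14, edgeR adjusted p 0.702), and 0.10 without non-responder 2. The values of all 9 genes in each tumor are drawn in the panels by gene.

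**Figure D2:**
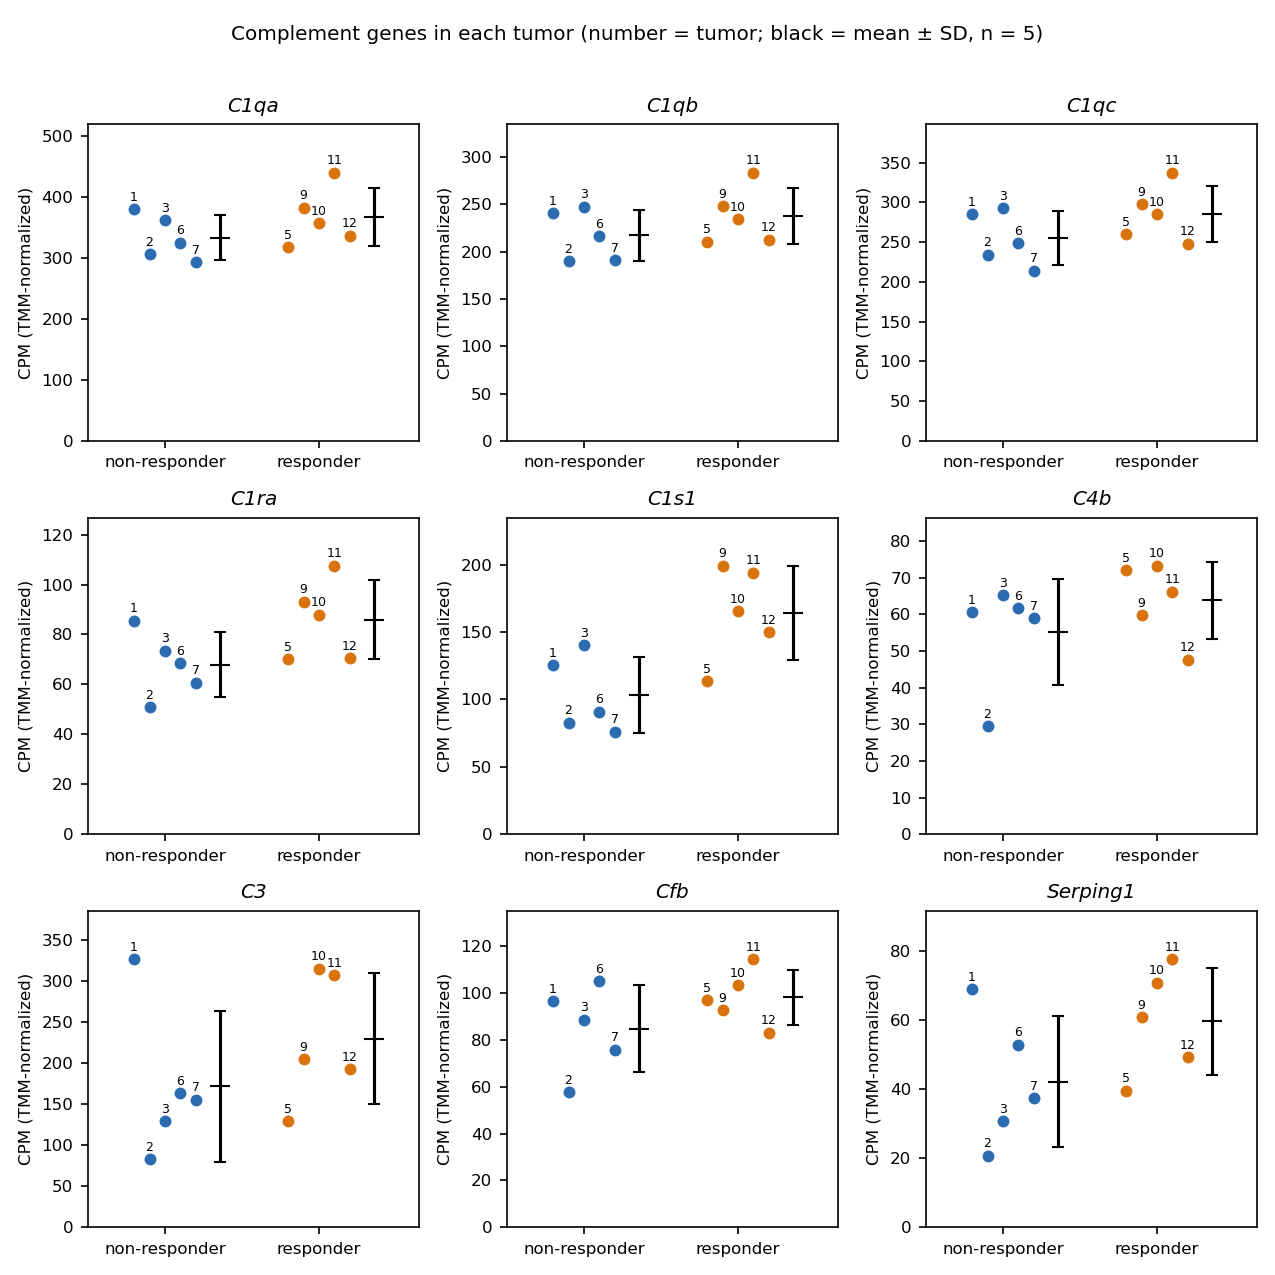
CPM (TMM-normalized) of each complement gene in the 10 tumors, with the tumor number beside each point and the group mean ± SD (n = 5) in black. For C1s1 4 responders lie above every non-responder. The groups overlap in all 9 panels, and non-responder 2 lies apart from the rest for C4b.

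Other genes of the pathway were taken by role, 48 in all, of which 28 passed the filter and 0 the adjusted threshold. Over all features, the background for each role below, 48.6% had a log2 fold change above 0. At an unadjusted p under 0.05 by edgeR, 4.20% were higher in responders and 8.21% differed in either direction. Of the genes of initiation, 8 of 14 were tested, 4 with a log2 fold change above 0, and those 4 were the 4 with an unadjusted p under 0.05. They are C1s2, the C1r-like gene C1rl at 0.40 (SE 0.11, p 0.00375), C1rb at 0.56 (SE 0.20, p 0.0145) and C2, the second substrate of C1s, at 0.25 (SE 0.11, p 0.0415), all with edgeR adjusted p-values between 0.580 and 0.597. Of these 4, 3 are relatives of C1r and C1s, and C1rb and C1s2 share sequence with members. With the interferon target score as a covariate C2 was at 0.08 (edgeR unadjusted p 0.420). Its unadjusted p was under 0.05 in 4 of the 10 fits that drop 1 tumor. Masp1, a protease of the lectin pathway and the most abundant gene of this group, was at 171 ± 11.8 CPM among responders and 171 ± 28.1 CPM among non-responders (SD, n = 5 per group), with a log2 fold change of -0.0015 that changed sign between settings. The scavenger receptor gene Colec12 was at -0.08, and at -0.0070 without non-responder 1. Of the soluble recognition genes, Mbl1, Mbl2 and Colec10 had 0 counts in every tumor, and Fcnb and Colec11 at most 3. Fcna, another of them, had 111 to 248 counts per tumor and a log2 fold change of -0.03 (SE 0.15).

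Of the alternative and terminal pathway, 5 of 9 genes were tested and 4 had a log2 fold change above 0. Cfp, which encodes properdin, the stabilizer of the alternative convertase, was at 87.4 ± 14.4 CPM among responders and 72.7 ± 7.28 CPM among non-responders (SD, n = 5 per group), a log2 fold change of 0.26 (SE 0.11, edgeR unadjusted p 0.0261, adjusted p 0.586). This value was 0.14 with the macrophage score as a covariate (edgeR unadjusted p 0.1255). The unadjusted p was under 0.05 in 5 of the 10 fits that drop 1 tumor. Cfd, the factor D gene that fat cells express strongly, was at -0.80 (SE 0.62, edgeR adjusted p 0.751), with 20 to 249 counts per tumor. It was -0.32 without non-responder 6 and -1.26 without responder 10. The 5 adipocyte markers beside it summed to between 1.57 and 7.85 CPM per tumor, and their part in the Cfd value was not tested. The terminal genes were low: C6 averaged 2.60 ± 0.96 and 1.96 ± 0.90 CPM, C8b had 0 counts in every tumor, and C7 and C9 had at most 2.

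The soluble regulators had lower means in responders, 3 of 3 tested out of 10 listed. Clu, which encodes clusterin, an inhibitor of the terminal complex, was at 6.68 ± 0.58 CPM among responders and 8.37 ± 1.82 CPM among non-responders (SD, n = 5 per group), with a log2 fold change of -0.33 (SE 0.14, edgeR unadjusted p 0.0347, adjusted p 0.591). It was -0.20 (unadjusted p 0.120) without non-responder 7. The C4-binding protein gene C4bp was at -0.13 and changed sign when 1 tumor was left out. Of the membrane regulators 5 of 6 were tested, 3 with a log2 fold change above 0.

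Cd55, which encodes decay-accelerating factor, a membrane protein that takes C3 convertases apart, had the largest log2 fold change of the 28, at 1.01 (SE 0.34, edgeR unadjusted p 0.0101, adjusted p 0.580). It was at 6.73, 2.43, 3.02, 3.52 and 3.05 CPM in non-responders 1, 2, 3, 6 and 7, and at 2.76, 7.07, 8.73, 11.1 and 7.98 CPM in responders 5, 9, 10, 11 and 12. The same 4 responders as for C1s1 exceeded every non-responder, and responder 5 was second lowest of all tumors. With single tumors left out the Cd55 log2 fold change ran from 0.82 to 1.33, with an unadjusted p under 0.05 in all 10 fits. It was 0.57 (edgeR unadjusted p 0.0143) with the macrophage score as a covariate. Without non-responder 2 and responder 11 together it was 0.69 (edgeR unadjusted p 0.0715). Of the other membrane regulators, the abundant Cr1l was at 0.01. Cd46, low at 4.49 ± 0.41 CPM among responders and 4.30 ± 0.59 CPM among non-responders, was at 0.06. Both log2 fold changes were close to 0 and changed sign in some settings. Of the receptors 7 of 9 were tested, 5 with a log2 fold change above 0 and 0 with an unadjusted p under 0.05. The most abundant were the integrin chains of complement receptor 3, Itgam at 0.07 (SE 0.07) and Itgb2 at 0.20 (SE 0.12), and the anaphylatoxin receptor C3ar1 at 0.10 (SE 0.11). Without responder 11 Itgb2 was at 0.12 and C3ar1 at 0.02, and without non-responder 1 they were at 0.30 (unadjusted p 0.0204 by edgeR) and 0.18. Itgam ran from 0.04 without non-responder 2 to 0.11 without non-responder 1. The fold changes of members and of these genes are drawn with their intervals in the plot by role.

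**Figure D3:**
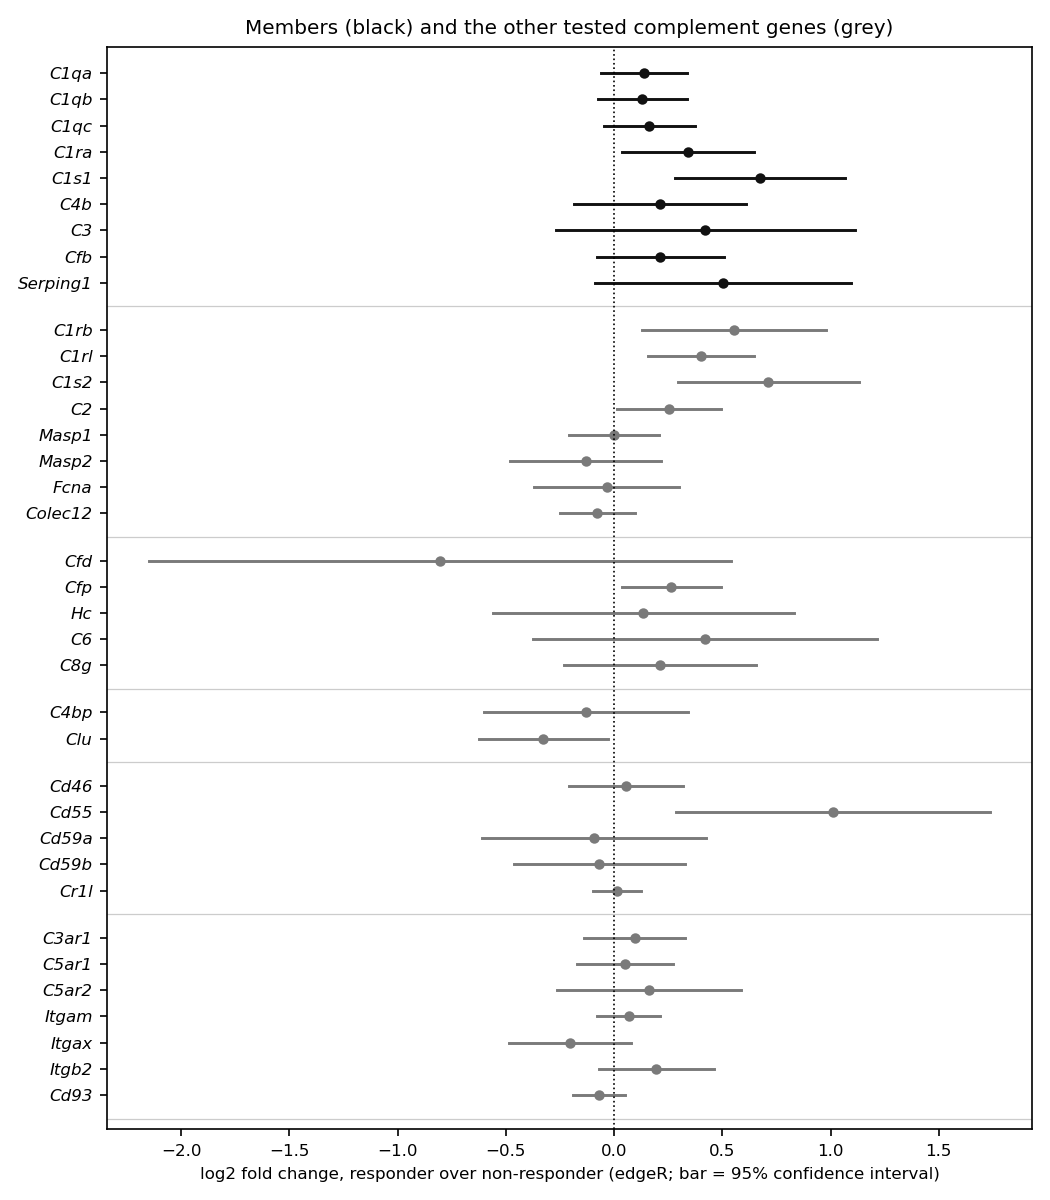
Log2 fold change, responder over non-responder, of the 9 complement genes (black) and 27 of the 28 other tested complement genes by role (grey, in the order initiation, alternative and terminal, soluble regulators, membrane regulators, receptors). Bars are 95% confidence intervals from edgeR. All 9 black points lie above 0, and the intervals of C1ra and C1s1 do not reach 0.

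Macrophage markers, fibroblast markers and interferon targets were set beside the members as scores, the mean log2(CPM + 1) over 12, 12 and 32 genes, none of them a complement gene. The macrophage score was 6.48 ± 0.14 among responders and 6.35 ± 0.19 among non-responders (SD, n = 5 per group), which is 0.14 higher (exact permutation p = 0.206, two-sided). The interferon target score was 6.82 ± 0.15 and 6.59 ± 0.24, a difference of 0.23 (exact permutation p = 0.119), and the fibroblast score 7.53 ± 0.07 and 7.57 ± 0.12, a difference of -0.04 (exact permutation p = 0.603). Adjusted over the 3 scores, the p-values were 0.310, 0.310 and 0.603, and the smallest p that 5 against 5 tumors allow is 0.00794. By gene, 28 of 32 interferon targets had a log2 fold change above 0, with a median of 0.17 and 13 at an unadjusted p under 0.05, and 10 of 12 macrophage markers, with a median of 0.12 and 1 at that p. Of 12 fibroblast and fibrosarcoma markers 4 were above 0 and 8 below, with a median of -0.10 and 3 of the lower ones at that p. Markers of other cell types were tallied the same way, and 0 of them passed the adjusted threshold by edgeR. The 9 markers of T and NK cells summed to 44.1 ± 16.9 CPM among responders and 29.5 ± 10.05 CPM among non-responders, and the 5 neutrophil markers to 33.4 ± 12.2 and 21.8 ± 6.38 CPM, with 9 of 9 and 5 of 5 log2 fold changes above 0 and 3 and 1 of these at an unadjusted p under 0.05, where 663 of all 15767 features were higher at that p. Below 0 were 4 of 5 endothelial markers, 5 of 5 skeletal muscle markers and 4 of 4 tested adipocyte markers, with 2, 2 and 1 of them at that p, where 631 features were lower. Of the 4 monocyte markers, which summed to 186 ± 11.4 and 188 ± 27.01 CPM, Ly6c2 was at 0.48 and Ccr2 at -0.23 (edgeR unadjusted p 0.00323 and 0.0487), both named after their values were seen. The 5 markers of conventional dendritic cells summed to 9.43 ± 1.19 and 9.04 ± 1.81 CPM and the 5 keratinocyte markers to 16.9 ± 1.62 and 17.2 ± 1.14 CPM, differences within the spread between tumors. The part of these cells in the complement values was not tested.

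Across the 10 tumors C3, Serping1 and C1ra lay closest to the macrophage score. This score weights its 12 markers alike, including widely varying ones such as Cd163 (29.7 ± 11.6 CPM among responders, 30.1 ± 20.5 among non-responders). The summed CPM of the same markers, led by Lyz2, orders tumors otherwise. Non-responder 2, lowest by score, summed to 1943 CPM, above non-responders 6 (1781) and 7 (1729). Relations of members with the summed level were not tested. Of 27 relations of a member with a score, 6 had an adjusted p under 0.05 (permutation test of Pearson's r, 100000 resamples, Benjamini-Hochberg over the 27), and all 6 were with the macrophage score. Whether the relations with this score differ from those with the interferon target score was not tested. C3 had r = 0.97 (permutation p = 4e-05, adjusted 0.00054) and rho = 0.92 (permutation p = 0.00057). Serping1 had r = 0.92 (permutation p = 4e-05, adjusted 0.00054) and rho = 0.96 (permutation p = 4e-05). C1ra had r = 0.89 (permutation p = 0.00065, adjusted 0.00585) and rho = 0.87 (permutation p = 0.00218). These 3 relations hardly moved without the 2 tumors farthest from the median score, non-responder 1 and responder 11, with r = 0.97, 0.93 and 0.88. They also held on deviations from the group means, with r = 0.96, 0.91 and 0.88 and adjusted permutation p-values of 0.00108, 0.00284 and 0.00558.

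The C1q genes, known as macrophage products, had smaller coefficients with the macrophage score than C3, Serping1 and C1ra. C1qa had r = 0.82 (permutation p = 0.00352, adjusted 0.0238) and rho = 0.82 (permutation p = 0.00597). C1qb had r = 0.78 (permutation p = 0.00827, adjusted 0.0372) and rho = 0.75 (permutation p = 0.0174). C1qc had r = 0.74 (permutation p = 0.0146, adjusted 0.0556) and rho = 0.70 (permutation p = 0.0313). Without the same 2 tumors r was 0.66, 0.66 and 0.60. On deviations from the group means r was 0.78, 0.74 and 0.68 (adjusted permutation p = 0.050, 0.0723 and 0.0972), close to the values over all tumors. Cfb had r = 0.76 (permutation p = 0.00704, adjusted 0.0372) and rho = 0.71 (permutation p = 0.0267), with r = 0.77 without the 2 tumors and r = 0.71 on deviations (adjusted permutation p = 0.0956). C1s1 had r = 0.69 (permutation p = 0.0304, adjusted 0.0685) and rho = 0.75 (permutation p = 0.0172), and C4b had r = 0.56 (permutation p = 0.0894, adjusted 0.151) and rho = 0.44 (permutation p = 0.204). Differences between the correlations of 2 members were not tested.

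With the interferon target score, 0 of 9 members had an adjusted p under 0.05. C4b and Cfb both had r = 0.71 (permutation p = 0.0178 and 0.0185, adjusted 0.0556 for both), with rho = 0.56 and 0.44 (permutation p = 0.0964 and 0.204). Without responder 5 and non-responder 2, the 2 tumors farthest from the median of this score, r was 0.22 and 0.45, so both relations rest on those tumors. C1s1 had r = 0.67 (permutation p = 0.0359, adjusted 0.0713) and rho = 0.50 (permutation p = 0.143), with r = 0.75 without the 2 tumors and 0.48 on deviations from the group means. C1ra had r = 0.66 and rho = 0.45 (permutation p = 0.0370 and 0.190, adjusted p of r 0.0713). C1qb and C1qc had r = 0.70 (permutation p = 0.0243 and 0.0230, adjusted 0.0596 for both) and rho = 0.50 and 0.60 (permutation p = 0.142 and 0.0713), with r = 0.85 and 0.83 without the 2 tumors. C1qa had r = 0.58 and rho = 0.43 (permutation p = 0.0761 and 0.218). C3 and Serping1 stood lowest here, at r = 0.28 and 0.40 (permutation p = 0.440 and 0.253) and rho = -0.08 and 0.14 (permutation p = 0.840 and 0.707). With the fibroblast score r ran from -0.25 (C1s1) to 0.50 (Cfb), and 0 of 9 had an adjusted p under 0.05. On deviations from the group means r was 0.68 for Serping1, 0.67 for Cfb and 0.53 for C3 (adjusted permutation p = 0.0972, 0.101 and 0.206). There rho was 0.79, 0.65 and 0.79 (permutation p = 0.00877, 0.0498 and 0.00873, unadjusted). For the remaining members r on deviations ran from -0.15 (C1s1) to 0.49 (C4b). The plots of single genes against the scores show C1qb, C1s1 and C3.

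**Figure D4:**
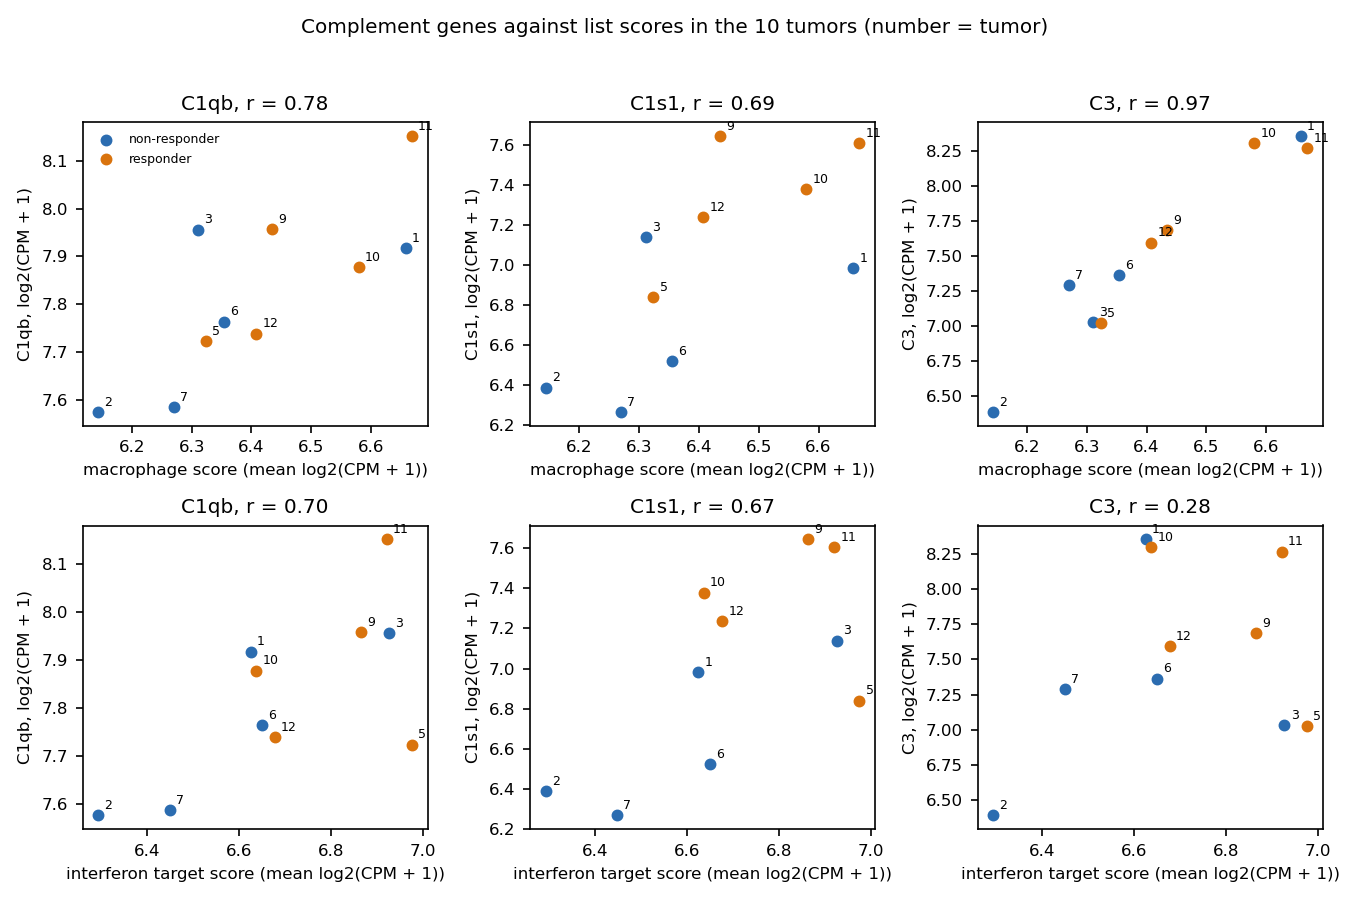
C1qb, C1s1 and C3, in log2(CPM + 1), against the macrophage score (top row) and the interferon target score (bottom row). Points are the 10 tumors, colored by group and numbered. C3 has r = 0.97 with the macrophage score and 0.28 with the interferon target score, while C1s1 has r = 0.69 and 0.67.

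Among themselves the members were positively related in all 36 pairs, 23 of them with an adjusted p under 0.05 (permutation test of Pearson's r, Benjamini-Hochberg over the 36). On deviations from the group means all 36 stayed above 0, with a median r of 0.66 in place of 0.72, and 16 had an adjusted permutation p under 0.05. The 10 tumors and their library totals are common to every pair. The C1q genes correlated with each other at r = 0.96 to 0.97 and C3 with Serping1 at r = 0.95. C4b and Cfb had r = 0.86, which was 0.61 without non-responders 7 and 2. C1ra was closer to C1qb (r = 0.93) than to its neighbor and substrate C1s1 (r = 0.87), though this difference was not tested. C1qa and C4b had the lowest value, r = 0.39. The median r was 0.97 within C1q, 0.73 among the other 6 genes, and 0.69 between C1q and those 6. The matrix of correlations shows every pair.

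**Figure D5:**
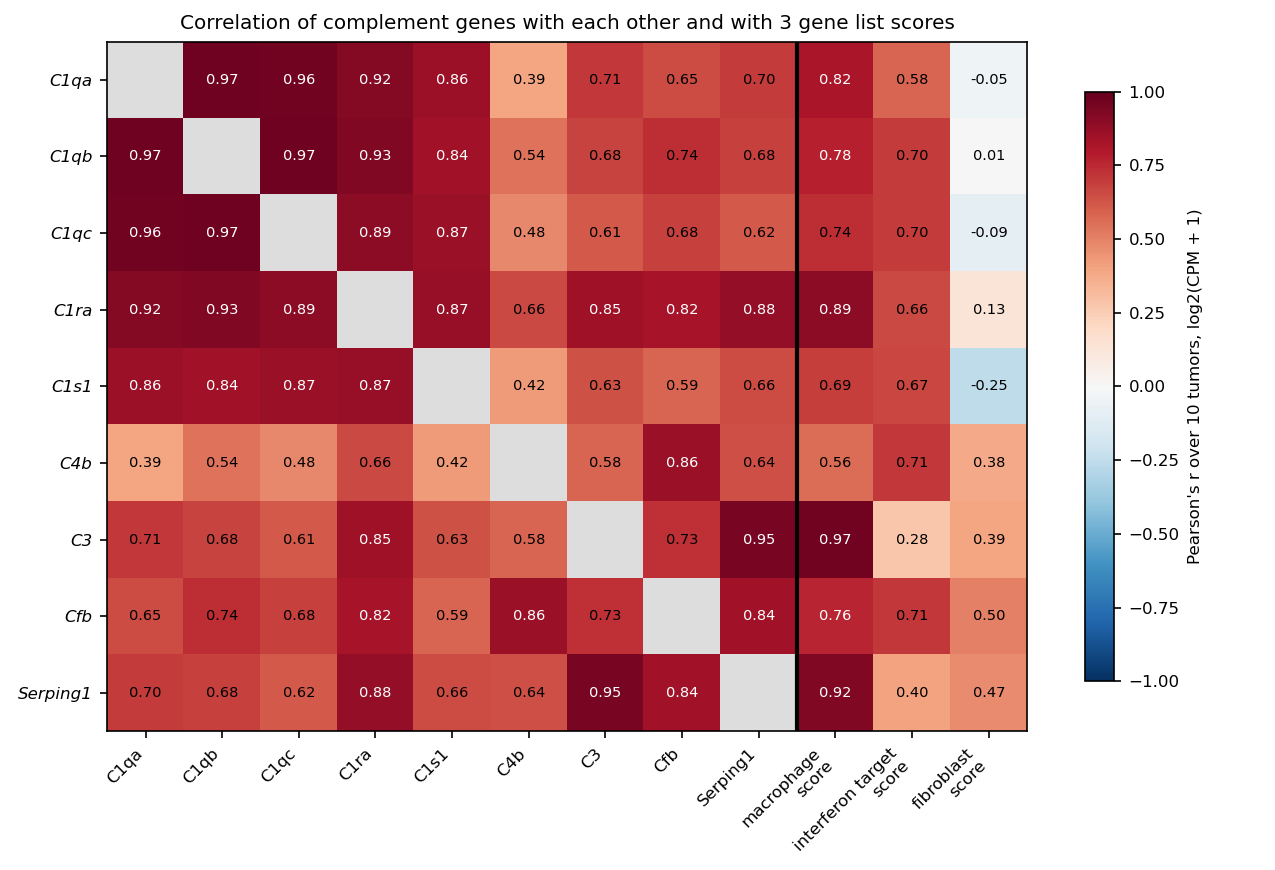
Pearson's r of log2(CPM + 1) over the 10 tumors between the 9 complement genes (left of the line) and with the 3 scores (right of it), colored from -1 to 1. The C1q genes form a block at 0.96 to 0.97, C3 and Serping1 stand at 0.95 with each other, and C4b has the palest row.

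Named features with a mean of at least 1 CPM, 13066 in all, were ranked by Pearson's r with each member over the 10 tumors. The other members were left out of the ranking, and the 3 most alike were as follows. For the C1q genes, Cybb, the oxidase subunit of phagocytes, was among the 3 each time, at r = 0.96, 0.99 and 0.99 for C1qa, C1qb and C1qc. The others were Tmem106a and P2rx4 for C1qa, Cd40 and Rassf5 for C1qb, and Lat2 and Cd86 for C1qc. For C1s1 they were Cd274, which encodes PD-L1 (r = 0.99), Il13ra1 and Jak3, and for C1ra they were Atp10a (r = 0.99), Smim24 and Slamf7. For C3 they were Rarres2, the chemerin gene (r = 0.99), Acta2 and the chemokine gene Ccl8, and for Serping1 Cd302 (r = 0.98), Rarres2 and Gm21188. For C4b they were C6 (r = 0.92), Sdf4 and Vmn1r65, and for Cfb Vmn1r65 (r = 0.95), Marchf1 and Clec4a3. With 10 tumors and this many features, high values occur by the choice of the top 3, and these are descriptions without a test.

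Taking the scores into the fit as covariates changed the sizes of the group differences. With the macrophage score, the log2 fold change was 0.50 for C1s1, 0.15 for C1ra, 0.16 for Serping1, 0.10 for C4b, 0.07 for Cfb and -0.00073 for C3, and 0.03, 0.02 and 0.06 for C1qa, C1qb and C1qc. With the interferon target score, it was 0.49 for C1s1, 0.40 for Serping1, 0.39 for C3, 0.19 for C1ra, 0.04 for Cfb and -0.02 for C4b, and 0.05, 0.0056 and 0.04 for C1qa, C1qb and C1qc. No member passed the adjusted threshold in either fit by edgeR. The scores are measured in the same pieces as the members. Without non-responder 2 and responder 11 together, a setting chosen after the data were seen, the log2 fold change was 0.54 for C1s1 (edgeR unadjusted p 0.0185), 0.16 for C1ra (unadjusted p 0.194), 0.21 for Serping1, 0.12 for C3, 0.04 for both C4b and Cfb, and 0.04, 0.02 and 0.07 for C1qa, C1qb and C1qc.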

How the data were processed

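RNA of 10 WEHI-164 tumor pieces, 5 from responders and 5 from non-responders, each from 1 mouse, was sequenced as polyA libraries with paired reads. The authors estimated transcript abundance with Kallisto, mapped transcripts to genes with tximport on mm10 and deposited estimated counts per gene, not normalized. The annotation release is not given in the sources used here. Of 36009 rows, 9580 have no gene name (1.20% to 1.49% of each total) and were kept as features, and 44 repeated names were summed, leaving 35958 features.

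Counts were rounded, and features with a CPM over 0.366 in at least 3 tumors were kept. Groups were compared with edgeR 4.0.16 (TMM, quasi-likelihood test, Benjamini-Hochberg over 15767 features, threshold 0.05) in R 4.3.3. Standard errors were obtained by dividing each log2 fold change by the root of its F statistic. The biological coefficient of variation was 10.4%. CPM values are TMM-normalized. Scores and correlations used log2(CPM + 1), in Python 3.11.15 with scipy 1.17.1. Scores were compared over all 252 assignments of the labels, and correlations used 100000 resamples. The fits were tested on simulated data. Alternatives were DESeq2 1.42.0, limma 3.58.1, other normalizations, filters and pseudocounts, unrounded counts, score covariates, and leaving out tumors. Lengths and coordinates are from GENCODE vM21 (GRCm38), and promoters from RefSeq (GRCm38.p6), where windows were found for 5 of the 9 genes.

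The 9 genes, the marker and pathway lists and the tests were chosen with earlier results of these data known. Named genes are the 9 members, their paralogs, other complement genes with an unadjusted p under 0.05 and the 3 most abundant of each role. The soluble recognition genes and the 3 features most like each member, the other members left out, are named too. Of the genes this rule picks, 2 are not reported here. No label gives a batch. The labels name separate tumors but no litter or day, so p-values measure the spread between these tumors.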

Additional observations from a re-analysis of the deposited data

Results flagged for a closer look

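C4b in non-responder 2 lay far from the other 4 non-responders. Its log2(CPM + 1) was 4.926, against 5.90 to 6.05 in the others. The gap to the nearest tumor was 0.869 of the range of the group, above Dixon's 95% critical value of 0.710 for 5 values. In all 58 groups of values were tested this way, of which chance would pick out about 2.9, and 1 was found. Non-responder 2 was also the lowest tumor for C1qb, C1ra, C3, Cfb and Serping1, and had the lowest macrophage score (6.14) and interferon target score (6.29) of the 10 tumors. Without it the C4b log2 fold change was 0.05 in place of 0.21. The cause was not tested.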

How the results depend on the processing

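No member passed the adjusted threshold under any of the alternatives run. The count of features called, 0 with edgeR's quasi-likelihood test (1294 at an unadjusted p under 0.05), was 1 with DESeq2 (Col6a2, named after its value was seen), and 0 to 9 with single tumors left out, the 9 without responder 5. The 1294 became 616 with the interferon target score as a covariate, 839 (without responder 11) to 2139 (without responder 5) with single tumors left out, and 844 without non-responder 2 and responder 11 together, a setting chosen after seeing the data, as were counts summed over genes that share sequence. The macrophage score difference ran from 0.085 to 0.21 with single tumors left out (0.21 without non-responder 1, exact permutation p = 0.0317), and the interferon target score difference from 0.15 to 0.31 (0.31 without non-responder 3, exact permutation p = 0.0317). The fibroblast score difference ran from -0.068 to 0.0092, above 0 without non-responder 6. On deviations from the group means 3 relations in place of 6 had an adjusted permutation p under 0.05. For the other 3, C1qa, C1qb and Cfb, r was 0.78, 0.74 and 0.71 in place of 0.82, 0.78 and 0.76. The C4b log2 fold change was -0.022 with the interferon target score as a covariate, and that of C3 -0.00073 with the macrophage score. The remaining changes of sign were of values near 0. Masp1 was 0.0026 with DESeq2, 0.012 with limma-voom, 0.0015 with no filter, 0.049 and 0.017 with the macrophage and interferon target scores, 0.11 without non-responder 2 and responder 11, and -0.057 to 0.081 with single tumors left out. Cr1l was -0.052 with the interferon target score, -0.024 without both tumors, and -0.016 to 0.046 with single tumors left out. C3ar1 was -0.055 and -0.014 with the macrophage and interferon target scores and -0.053 without both tumors, and Itgam was -0.018 with the macrophage score. With single tumors left out C4bp ran from -0.31 to 0.011 and Cd46 from -0.010 to 0.12. Pearson's r with the fibroblast score was -0.024 (pseudocount 0.1) and -0.028 (library size alone) for C1qb, 0.043 (deviations from the group means) and 0.15 (without the 2 farthest tumors) for C1qa, and 0.0062 and 0.017 for C1qc under the same settings. The causes were not tested. No paired analysis was possible because the tumor numbers are unique across the groups.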
